A study of Mus musculus with 13 samples.

Results

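The genes described here encode the subunits of potassium channels in the mouse retina. Symbols beginning with Kcn were taken from the deposited table of nuclear genes, apart from Kcnj10, Kcnq1ot1 and antisense or pseudogene symbols, and a gene was kept when at least 4 of the 13 libraries held 10 or more reads of it. Of 29700 nuclear genes in the table, 94 carried such a symbol, 6 were left out by name and 69 of the remaining 88 reached the minimum. The 69 genes comprised 33 voltage-gated or modifier alpha subunits (Kcna to Kcnh, Kcnq, Kcns, Kcnv), 10 inward rectifiers (Kcnj), 7 channels of the K2P leak type (Kcnk), 9 subunits of calcium- or sodium-activated channels (Kcnma, Kcnmb, Kcnn, Kcnt, Kcnu), 9 auxiliary subunits (Kcnab, Kcne, Kcnip) and Kcnrg. Kcnu1 is counted with the calcium- or sodium-activated channels by its symbol, although its channel is known as pH-sensitive. All 69 are annotated as protein-coding, and 62 of them had 10 or more reads in all 13 libraries.

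RNA from a single retina of each mouse was sequenced in 3 groups. Rpe65-/- mice given TMB (n = 5) ate chow with tamsulosin, an alpha-1 adrenergic blocker, metoprolol, a beta-1 blocker, and bromocriptine, a D2-like dopamine agonist, from postnatal day 22 to collection on day 64. Rpe65-/- mice on vehicle (n = 4) ate the base chow and were collected on day 64, and wild-type (WT) mice (n = 4) were C57BL/6J animals of 2 months. Rpe65 encodes the retinoid isomerase of the pigment epithelium that renews visual chromophore, and mice without it are a model of Leber congenital amaurosis. The mutation is carried throughout the body, and the sources used here do not name the exact substrain of the Rpe65-/- animals. The study design speaks of fewer WT mice than the 4 that are labelled, and all 4 were used. Libraries are named by group, labelled sex and number. Nothing in the labels says whether mice shared litters, so p-values measure the spread between these mice only.

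Potassium channels set the resting potential of retinal neurons and repolarise them after light or synaptic input. In photoreceptors, the silent modifier subunit Kcnv2 (Kv8.2) contributes to the outward current of the inner segment that opposes the dark current, and loss of KCNV2 in humans causes a cone dystrophy with supernormal rod responses. Inward rectifiers pass potassium near rest, K2P channels carry a leak, calcium-activated channels answer calcium entry, and auxiliary subunits of the Kcnab, Kcne and Kcnip families alter the gating or surface delivery of the pore-forming subunits.

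The sequence that makes these proteins potassium channels is the selectivity filter, a short run built around a glycine, an aromatic residue and a glycine. A filter of this kind was found in the longest open reading frame of all 33 voltage-gated or modifier subunits, all 10 inward rectifiers and all 7 K2P genes, of which 6 held it at least 2 times. It was found in 7 of 9 calcium- or sodium-activated subunits, the exceptions being the accessory Kcnmb2 and Kcnmb4, and in 0 of 9 auxiliary subunits. The coding stretches of 7 members, from the GENCODE M21 transcripts, are shown because GC content moves with the results below. Their filters differ in bases and, between several of them, also in residues. Capitals mark the 15 bases that encode the filter.
Kcnh7: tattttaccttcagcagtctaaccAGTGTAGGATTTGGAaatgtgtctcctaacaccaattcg
Kcnj3: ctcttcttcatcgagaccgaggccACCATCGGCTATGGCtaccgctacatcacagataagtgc
Kcnma1: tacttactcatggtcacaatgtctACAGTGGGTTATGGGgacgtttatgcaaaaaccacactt
Kcna2: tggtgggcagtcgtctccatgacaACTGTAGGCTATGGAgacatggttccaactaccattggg
Kcnk1: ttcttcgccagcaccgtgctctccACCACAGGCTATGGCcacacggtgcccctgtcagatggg
Kcna5: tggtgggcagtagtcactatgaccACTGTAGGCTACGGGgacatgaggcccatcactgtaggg
Kcnj9: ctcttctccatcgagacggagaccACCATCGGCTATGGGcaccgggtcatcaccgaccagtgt
The 7 are given in order of the GC content of the longest transcript, which was 39.6% for Kcnh7, 43.9% for Kcnj3, 45.2% for Kcnma1, 45.8% for Kcna2, 51.8% for Kcnk1, 54.3% for Kcna5 and 57.2% for Kcnj9.

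RefSeq start sites (build GRCm38.p6, 250 bases before to 50 after the start) were matched for 49 members with 70 promoters. Kcne2, Kcnip2 and Kcnj3 are shown because each passed the test against WT in both Rpe65-/- groups, and Kcng4 because it holds the core of the site bound by the photoreceptor factor CRX. That core, TAATCC on either strand (GGATTA on the other), is in capitals where it occurs.
Kcne2, chr16:92292139-92292438, plus strand: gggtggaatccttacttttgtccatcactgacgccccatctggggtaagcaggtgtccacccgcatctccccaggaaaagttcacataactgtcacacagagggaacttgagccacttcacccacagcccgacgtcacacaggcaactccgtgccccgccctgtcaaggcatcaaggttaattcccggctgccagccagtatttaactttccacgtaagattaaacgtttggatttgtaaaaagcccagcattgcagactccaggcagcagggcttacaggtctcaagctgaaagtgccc
Kcne2, chr16:92295366-92295665, plus strand: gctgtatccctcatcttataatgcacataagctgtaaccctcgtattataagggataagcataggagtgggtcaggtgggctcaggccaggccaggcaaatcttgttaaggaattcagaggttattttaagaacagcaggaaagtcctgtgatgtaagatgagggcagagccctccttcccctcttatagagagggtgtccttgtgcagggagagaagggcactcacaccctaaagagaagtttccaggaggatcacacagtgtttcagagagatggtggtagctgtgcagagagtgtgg
Kcnip2, chr19:45816014-45816313, minus strand: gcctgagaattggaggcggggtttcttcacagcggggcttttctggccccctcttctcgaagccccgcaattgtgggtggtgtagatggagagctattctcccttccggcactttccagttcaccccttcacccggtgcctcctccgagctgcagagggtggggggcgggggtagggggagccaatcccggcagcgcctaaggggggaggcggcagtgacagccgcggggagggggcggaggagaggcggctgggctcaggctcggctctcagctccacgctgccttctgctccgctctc
Kcnj3, chr2:55435720-55436019, plus strand: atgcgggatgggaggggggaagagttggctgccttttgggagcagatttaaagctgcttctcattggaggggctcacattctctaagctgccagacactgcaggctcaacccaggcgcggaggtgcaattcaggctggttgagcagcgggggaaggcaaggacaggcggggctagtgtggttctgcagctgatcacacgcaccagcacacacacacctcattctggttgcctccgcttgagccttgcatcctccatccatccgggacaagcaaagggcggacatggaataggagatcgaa
Kcng4, chr8:119635631-119635930, minus strand: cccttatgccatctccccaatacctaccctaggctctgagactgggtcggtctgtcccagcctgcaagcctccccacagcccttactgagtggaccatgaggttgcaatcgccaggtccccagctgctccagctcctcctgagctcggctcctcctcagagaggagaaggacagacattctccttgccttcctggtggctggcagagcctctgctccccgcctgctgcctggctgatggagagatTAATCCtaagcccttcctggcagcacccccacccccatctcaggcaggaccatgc
The core was in 3 of the 70 member promoters (4.29%), against 7.06% of all 32851 promoters of that length. The windows of Kcne2, Kcnip2 and Kcnj3 do not hold these letters. A match describes the letters only.

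Nuclear counts per library ranged from 13677803 to 16179633 in TMB, 13785109 to 16408151 in vehicle and 13512155 to 16449989 in WT libraries, and counts per library were scaled to 1000000 (CPM). A count of 0 leaves room for up to 3 reads, or between 0.182 and 0.222 CPM depending on the library. Rpe65 had 0, 0, 3, 4 and 7 reads in TMB libraries and 6, 8, 6 and 1 in vehicle libraries, against 106, 226, 135 and 72 in WT libraries. A deposited sample list names C57BL/6J for vehicle F1, which had 6 of these reads. Vehicle F2, labelled female, had 1 read of Xist and 2504 reads of Y-linked genes, as the libraries labelled male do, and held the most pigment epithelium RNA (521 summed CPM of marker genes other than Rpe65, and 112 to 196 CPM in the other vehicle libraries). WT F4 stood apart from the other WT libraries in base composition. Its GC-richest 20% of genes lay 0.28 above their mean over all libraries on the log2 scale, where WT M1, M2 and F3 lay at -0.38, -0.33 and -0.49, TMB libraries between -0.19 and 0.13 and vehicle libraries between 0.12 and 0.33.

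The 69 genes together took 0.479% to 0.523% of nuclear counts in TMB libraries and 0.492% to 0.532% in vehicle libraries, against 0.596% to 0.616% in WT libraries. The Rpe65-/- libraries did not overlap with WT. The gap lay in few genes, since the 66 members other than the 3 most abundant summed to 1964 to 2306 CPM in TMB and 2131 to 2451 CPM in vehicle, against 2267 to 2519 CPM in WT libraries, and these ranges overlapped.

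Levels per kb of the longest transcript had a median of 3.64 CPM per kb over the members. They ran between 183 CPM per kb for Kcnj14 and 0.152 for Kcng3. Among the highest were Kcnj14 (183), the strong inward rectifier Kir2.4, then Kcnv2 (140.2), the Kv1 partner Kcnab2 (68.3), Kcna5 (28.0), which is Kv1.5, the calcium-binding Kv4 partner Kcnip4 (26.0), Kcnj9 (22.4), a subunit of G protein-gated channels, Kcnma1 (20.9), the BK channel pore, and Kcne2 (20.0). In TMB libraries Kcnj14 averaged 157 ± 12 CPM per kb and Kcnv2 141 ± 5.5 (SD, n = 5), and in WT libraries Kcnj14 averaged 221 ± 51 and Kcnv2 156 ± 8.8 (SD, n = 4). At 10 CPM per kb or more stood 21 members, and 16 were under 1.

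**Figure D1:**
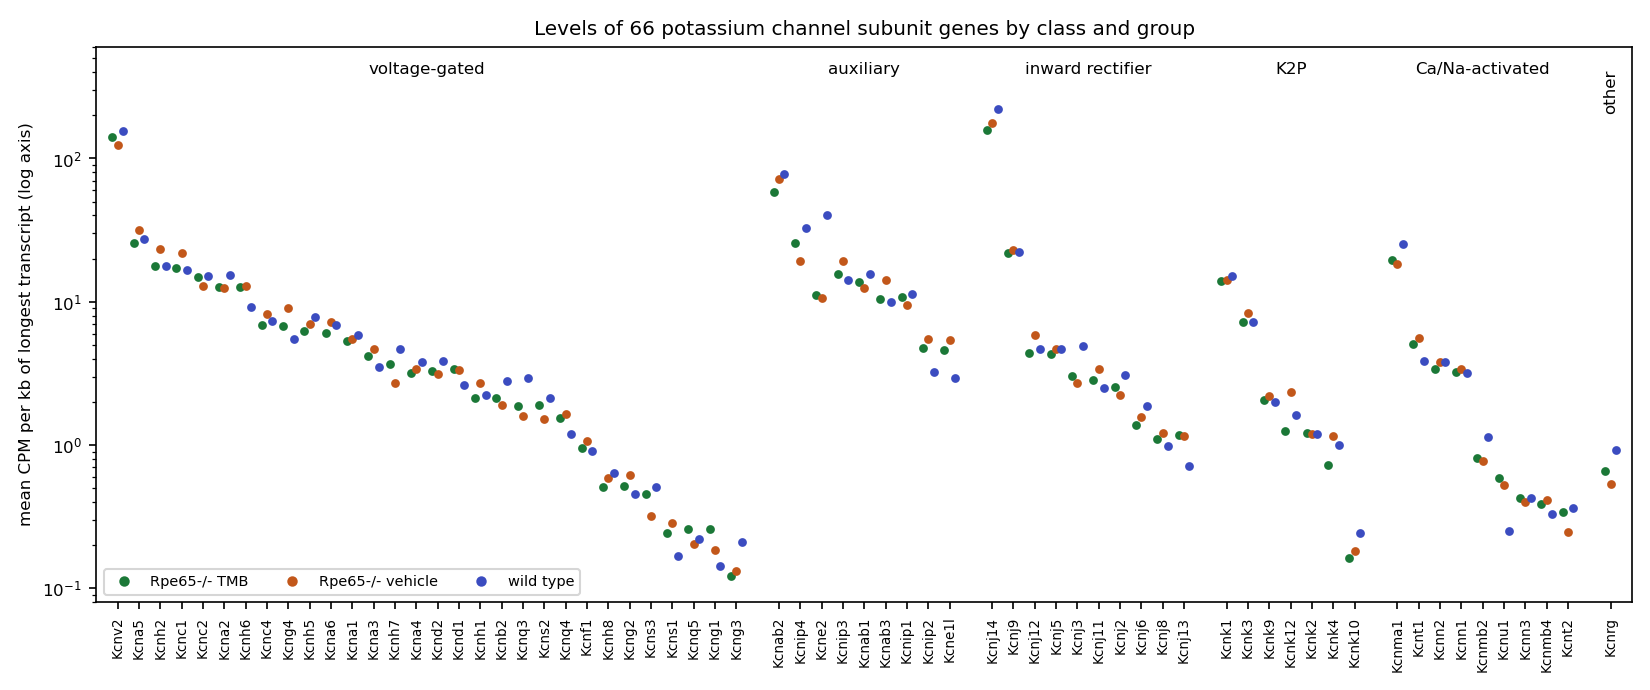
Mean CPM per kb of transcript (log axis) of 66 of the 69 members in TMB, vehicle and WT retinas (1 point per group), ordered by mean level within each class. Kcnj14 and Kcnv2 stand above the other members drawn in every group, and the drop of Kcne2 in both Rpe65-/- groups is the widest gap between points.

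The contrasts of vehicle and of TMB with WT address what differs in the disease model without and with the drug diet. Both use the same WT libraries, so their values are set side by side only.

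In vehicle against WT retinas, 25 of the 69 members passed the test (edgeR quasi-likelihood test, Benjamini-Hochberg adjusted p under 0.05 over 16782 genes), 12 higher and 13 lower. The share of all tested genes called was 33.9% (15.7% higher and 18.3% lower), so the members were called about as often as genes in general. Their median log2 fold change was 0.02, and that of all genes was also 0.02. By class, 12 of 33 voltage-gated or modifier subunits were called (5 higher, 7 lower), 7 of 9 auxiliary subunits (4 higher, 3 lower), 3 of 10 inward rectifiers (1 higher, 2 lower), 3 of 9 calcium- or sodium-activated subunits (2 higher, 1 lower) and 0 of 7 K2P channels. In 13 members (7 higher, 6 lower) the 2 groups did not overlap in CPM, against 16.9% of all genes.

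In TMB against WT retinas, 9 of 69 members passed the test (3 higher, 6 lower), against 9.53% of all genes (4.51% higher and 5.02% lower). The 3 higher were Kcnu1, Kcnip2 and Kcnt1, and the 6 lower included Kcne2, Kcnj3, Kcnq3, Kcnj14 and Kcnab2. In 6 members (2 higher, 4 lower) the groups did not overlap, against 10.3% of all genes. The members' median log2 fold change was -0.09, and that of all genes was 0.00. Of the called members, 7 were called in both contrasts and in the same direction (including Kcne2, Kcnj3, Kcnq3, Kcnu1, Kcnip2 and Kcnt1).

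These counts depend on WT F4. Without it, 41 members were called in vehicle (22 higher, 19 lower), against 55.6% of all genes, and 27 in TMB (11 higher, 16 lower), against 38.0%. The lists that follow cover only members selected by the naming rule in the processing section. Not called in TMB with all 13 libraries but lower without WT F4 were Kcnb2 (-0.56, adjusted p = 0.00013), Kcnh7 (-0.53, adjusted p = 0.00023), Kcnip4 (-0.52, adjusted p = 0.0017), Kcnma1 (-0.48, adjusted p = 0.00066), Kcnj2 (-0.45, adjusted p = 0.0058), Kcna2 (-0.36, adjusted p = 0.0019) and Kcnd2 (-0.32, adjusted p = 0.029). Higher there were Kcne1l (0.84, adjusted p = 0.0083), Kcng4 (0.60, adjusted p = 0.0018) and Kcnip3 (0.30, adjusted p = 0.035). Of the members under that rule, Kcnd2 (-0.39, adjusted p = 0.0079), Kcnc2 (-0.32, adjusted p = 0.0026) and Kcna5 (0.28, adjusted p = 0.015) were added in vehicle. Leaving out WT M1, WT M2 or WT F3 instead gave 13, 13 and 11 members in vehicle and 4, 4 and 5 in TMB. Of the 17069, 17000 and 16998 genes tested there, 2967, 3066 and 2849 were called in vehicle and 896, 944 and 1077 in TMB. Without vehicle F1 or vehicle M5, 15 and 14 members were called in vehicle, and 3152 of 17024 and 3389 of 17051 genes. Without TMB F3, TMB F4, TMB M5 or TMB M6, TMB counts were 5, 5, 6 and 6. All genes called there numbered 1007, 973, 1138 and 1092, of 16650 to 16705 tested. Without vehicle F2 the vehicle count was 19 (8 higher, 11 lower), against 30.6% of all genes. The members' shares stayed near those of all genes in each of these settings for which both are given.

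**Figure D2:**
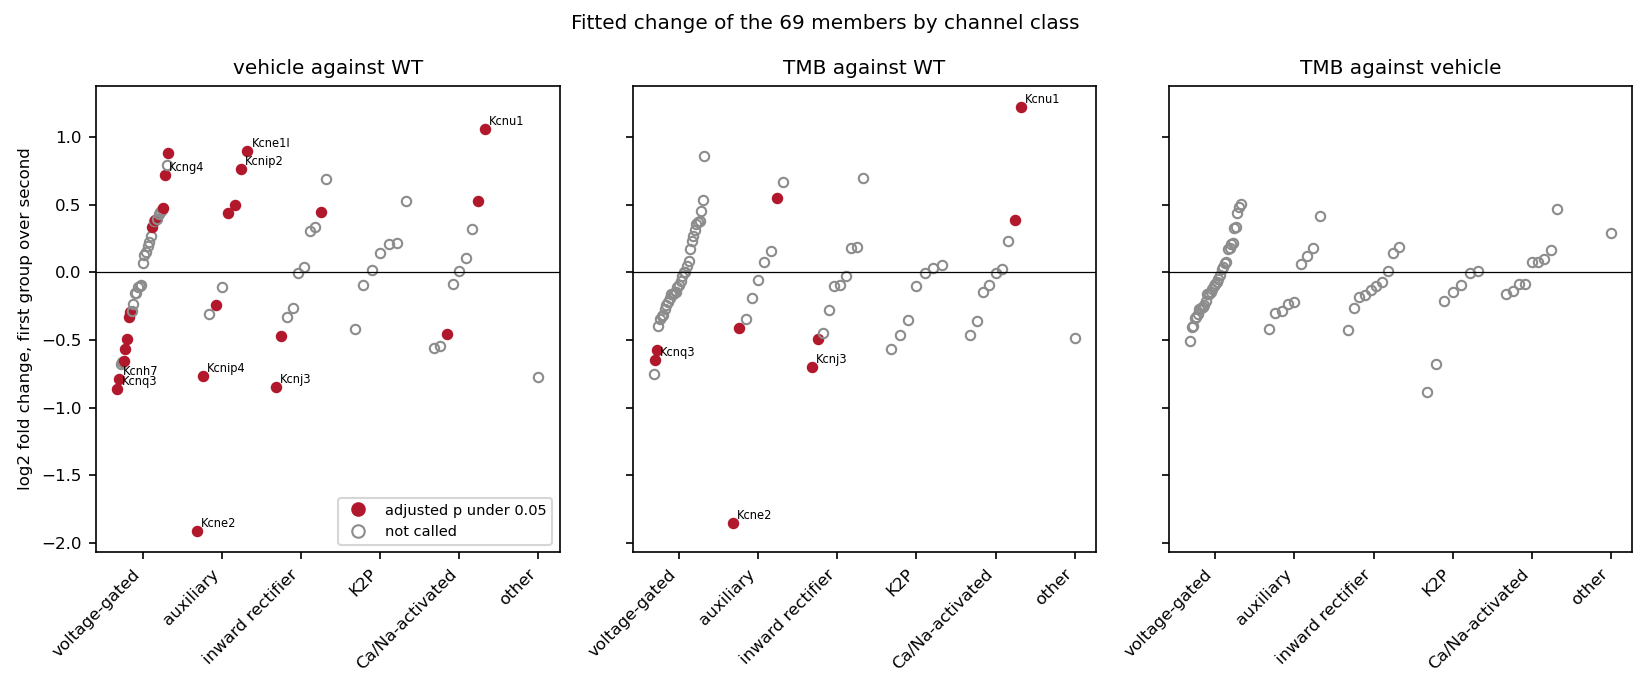
Fitted log2 fold change (first group over second) of each member by channel class in vehicle against WT, TMB against WT and TMB against vehicle. Filled points passed an adjusted p of 0.05. Kcne2 lies near -1.9 in both contrasts with WT, Kcnu1 lies above 1, and no point is filled in TMB against vehicle.

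The largest difference was in Kcne2 (chr16:92292389-92298129, build GRCm38), a single-pass auxiliary subunit that joins several voltage-gated channels. Kcne2 had 17.8, 17.6, 20.0, 22.4 and 16.4 CPM in TMB and 18.5, 18.9, 15.7 and 19.1 CPM in vehicle libraries, against 76.0, 61.4, 71.4 and 63.3 CPM in WT libraries. Every Rpe65-/- library was far below every WT library, and the 2 Rpe65-/- groups overlapped. Kcne2 fell to 0.266 of WT in vehicle (log2 fold change -1.91 ± 0.12 SE, adjusted p = 4.1e-08) and to 0.277 of WT in TMB (-1.85 ± 0.11, adjusted p = 2.5e-08). Both calls were kept in all 25 alternatives, with log2 values between -1.97 and -1.73 in vehicle and between -1.92 and -1.77 in TMB. TMB and vehicle differed by 0.06 ± 0.11 (adjusted p = 0.77). The transcript shares no 50-base stretch with another gene and overlaps no other exon.

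Cone RNA moved with Kcne2. All 9 cone markers (such as Opn1sw, Opn1mw and Arr3) fell in both contrasts, and their summed level was 123 to 184 CPM in TMB and 139 to 198 CPM in vehicle, against 1302 to 1418 CPM in WT libraries. In bulk RNA, fewer cells of a type and less RNA per cell cannot be told apart. The part of cone RNA in the change of Kcne2 was not tested.

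Kcnv2 (chr19:27322588-27337179), the silent modifier of photoreceptors, had 731, 688, 756, 693 and 721 CPM in TMB and 579, 763, 580.3 and 613 CPM in vehicle, against 818, 762, 849 and 755 CPM in WT. In vehicle, 3 libraries were below every WT library and vehicle F2 was inside the WT range. Kcnv2 fell by 0.33 ± 0.09 in vehicle (adjusted p = 0.015), a call lost without vehicle F1 (-0.29, adjusted p = 0.053) or without WT F3 (-0.29, adjusted p = 0.053). The vehicle call was kept in 20 of 25 alternatives, and not with only the 2 groups compared (-0.32, adjusted p = 0.064). Its TMB value of -0.15 ± 0.09 did not pass (adjusted p = 0.29) and did so in 1 of 25 alternatives. TMB against vehicle was 0.18 ± 0.09 for Kcnv2 (adjusted p = 0.28), and it passed in 1 of 25 alternatives.

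The 10 rod markers, which check the retina label, summed to 50840.0 to 58700.0 CPM in TMB and 52230.0 to 63310.0 CPM in vehicle, against 61650.0 to 76340.0 CPM in WT libraries. In vehicle 1 of them was called higher and 4 lower, and in TMB 1 higher and 1 lower. The part of rod RNA in the change of Kcnv2 was not tested.

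Kcnb2 and the modifiers Kcng4 and Kcns2 showed no common direction. Kcnb2 (Kv2.2) had 32.8, 31.8, 29.5, 31.8 and 32.7 CPM in TMB and 28.2, 29.4, 27.2 and 27.9 CPM in vehicle, against 42.5, 44.6, 53.2 and 26.4 CPM in WT. WT F4 was the lowest of all 13 libraries, and the other WT libraries were the highest. Kcnb2 fell by 0.56 ± 0.15 in vehicle (adjusted p = 0.014), but with the GC trend removed the value was -0.11 (adjusted p = 0.37), and without WT F3 it was -0.42 (adjusted p = 0.052).

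Kcng4 (Kv6.4) and Kcns2 (Kv9.2) were called in opposite directions. Kcng4 had 19.6, 31.1, 25.7, 27.0 and 25.9 CPM in TMB and 34.3, 35.6, 32.8 and 34.4 CPM in vehicle, against 19.3, 17.3, 14.6 and 32.1 CPM in WT. It rose by 0.72 ± 0.19 in vehicle (adjusted p = 0.014), by 0.32 with the GC trend removed (adjusted p = 0.041) and by 1.01 without WT F4, and the call was lost without WT M2 (0.64, adjusted p = 0.0502). Kcns2 had 8.94, 10.3, 12.8, 10.2 and 9.58 CPM in TMB and 8.96, 8.77, 8.49 and 6.78 CPM in vehicle, against 13.7, 11.6, 11.1 and 10.03 CPM in WT. It fell by 0.49 ± 0.14 in vehicle (adjusted p = 0.020), without overlap, and lost the call without vehicle M5 (-0.41, adjusted p = 0.067) or WT M1 (-0.40, adjusted p = 0.073). With all 13 libraries neither was called in TMB, and without WT F4 Kcng4 was (0.60, adjusted p = 0.0018).

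**Figure D3:**
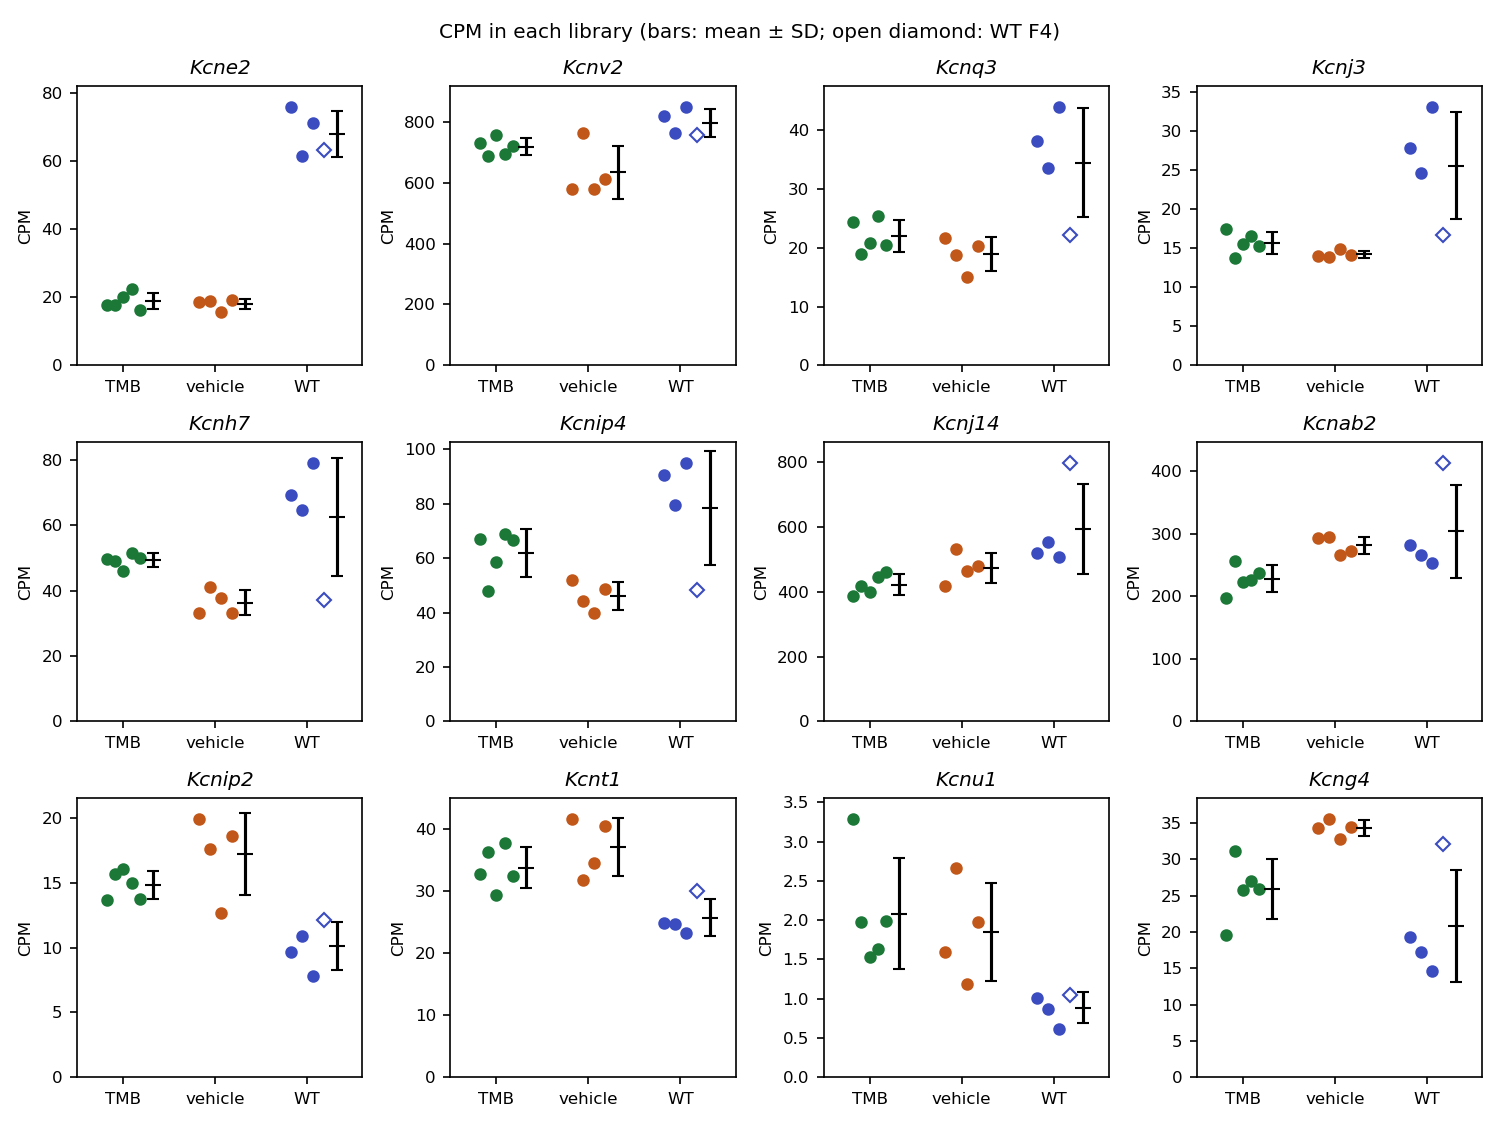
CPM of 12 members in each TMB, vehicle and WT library, with the mean and SD of each group beside the points and WT F4 drawn as an open diamond. Kcne2 separates Rpe65-/- from WT in every library, whereas WT F4 lies near the vehicle level for Kcnh7, Kcnip4 and Kcng4.

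Kcnq3 and Kcnh7 were also lower. Kcnq3 (chr15:65986387-66286642), a subunit of the slow M-current, had 24.3, 18.9, 20.9, 25.4 and 20.5 CPM in TMB and 21.6, 18.8, 14.9 and 20.2 CPM in vehicle, against 38.1, 33.6, 43.9 and 22.1 CPM in WT. The lowest WT library, WT F4, was just above the highest vehicle library and inside the TMB range. Kcnq3 fell by 0.86 ± 0.18 in vehicle (adjusted p = 0.0044), kept in all 25 alternatives, and by 0.65 ± 0.17 in TMB (adjusted p = 0.025), kept in 7 of 13 leave-outs.

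Kcnh7 (Erg3) had 49.6, 49.1, 45.9, 51.6 and 50.1 CPM in TMB and 33.1, 41.0, 37.7 and 33.2 CPM in vehicle, against 69.1, 64.6, 79.1 and 37.2 CPM in WT. WT F4 fell within the vehicle range, and the TMB libraries lay between the vehicle libraries and the other 3 WT libraries. Kcnh7 fell by 0.79 ± 0.17 in vehicle (adjusted p = 0.0048, kept in all 25 alternatives, -0.34 with the GC trend removed). In TMB its value was -0.34 ± 0.16 (adjusted p = 0.18) with all libraries and -0.53 without WT F4 (adjusted p = 0.00023).

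In the Kcnc family of fast channels, Kcnc1 (Kv3.1, transcript GC 57.4%) averaged 134 ± 22 CPM in TMB and 170 ± 11 CPM in vehicle, against 130 ± 25 CPM in WT (SD). It was called higher in vehicle (0.39 ± 0.14, adjusted p = 0.041), but the value was -0.04 with the GC trend removed. The call was also lost without TMB F4 or M6, without vehicle F1, F2 or M5, and without WT M1, M2 or F3. Adjusted p there was 0.052 to 0.123. Kcnc2 (Kv3.2, transcript GC 45.7%) had a value of -0.23 ± 0.10 in vehicle that did not pass (adjusted p = 0.084), and -0.32 without WT F4, which did (adjusted p = 0.0026).

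In the Kcna family 1 of 6 members was called with all 13 libraries. Kcna2 (Kv1.2), a channel of axons and terminals, averaged 148 ± 12 CPM in TMB and 145 ± 7.5 CPM in vehicle, against 178 ± 26 CPM in WT. It fell by 0.30 ± 0.10 in vehicle (adjusted p = 0.037), kept in 5 of 13 leave-outs and not with the GC trend removed (-0.14, adjusted p = 0.23). Kcna1 averaged 21.4 ± 2.3 CPM in TMB and 22.1 ± 0.9 CPM in vehicle, against 23.6 ± 2.0 CPM in WT, with values of -0.14 ± 0.10 in TMB and -0.09 ± 0.11 in vehicle. Kcna5, the highest Kcna gene per kb but below Kcna2 in CPM, averaged 73.0 ± 5.2 CPM in TMB and 90.3 ± 11 CPM in vehicle, against 78.8 ± 8.6 CPM in WT, and was called higher in vehicle when WT F4 (0.28, adjusted p = 0.015) or vehicle M4 (0.28, adjusted p = 0.045) was left out.

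Kcnd1 (Kv4.1) and Kcnh6 (Erg2), outside the naming rule, were also called higher in vehicle, at 0.33 ± 0.12 (adjusted p = 0.049) and 0.47 ± 0.16 (adjusted p = 0.031). With the GC trend removed they stood at 0.08 and 0.05 and were not called. Kcnd2 (Kv4.2), Kcnh8 and Kcnq5 were not called in any contrast with all 13 libraries, but Kcnd2 was lower without WT F4 in vehicle (-0.39, adjusted p = 0.0079) and in TMB (-0.32, adjusted p = 0.029). Of the 12 voltage-gated calls in vehicle, 3 were kept in every leave-out of 1 library (Kcnq3 and Kcnh7 among them) and 7 with the GC trend removed.

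The 7 auxiliary subunits called in vehicle stood on both sides. Kcnip2 (chr19:45791839-45816061), a calcium-binding partner of Kv4 channels that sustains the transient outward current in heart, had 13.7, 15.6, 16.03, 14.9 and 13.8 CPM in TMB and 19.9, 17.6, 12.7 and 18.6 CPM in vehicle, against 9.67, 10.9, 7.84 and 12.1 CPM in WT. All Rpe65-/- libraries exceeded all WT libraries. Kcnip2 rose by 0.77 ± 0.15 in vehicle (adjusted p = 0.0036) and by 0.55 ± 0.15 in TMB (adjusted p = 0.029), and with the GC trend removed by 0.45 and 0.40. The TMB call was kept in 7 of 13 leave-outs, with adjusted p up to 0.102 in the others (without WT F3).

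Kcnip4, the most abundant of the Kcnip genes per kb, had 67.1, 48.0, 58.4, 68.8 and 66.7 CPM in TMB and 52.0, 44.1, 39.99 and 48.5 CPM in vehicle, against 90.7, 79.7, 95.1 and 48.5 CPM in WT. It fell by 0.76 ± 0.17 in vehicle (adjusted p = 0.0067), kept in all 25 alternatives, and by 0.33 with the GC trend removed (adjusted p = 0.037). In TMB its value was -0.34 ± 0.16 (adjusted p = 0.20), and -0.52 without WT F4 (adjusted p = 0.0017). Its exons overlap 2 genes on the opposite strand.

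Kcnip1 and Kcnip3, a DNA-binding calcium sensor also known as DREAM, were called in vehicle in opposite directions. Kcnip1 averaged 44.4 ± 3.1 CPM in TMB and 39.1 ± 3.2 CPM in vehicle, against 46.2 ± 3.1 CPM in WT, and fell by 0.24 ± 0.09 in vehicle (adjusted p = 0.048, kept in 1 of 13 leave-outs). Kcnip3 averaged 43.0 ± 4.4 CPM in TMB and 52.3 ± 7.4 CPM in vehicle, against 38.5 ± 7.4 CPM in WT, and rose by 0.44 ± 0.13 in vehicle (adjusted p = 0.023, kept in 8 of 13 leave-outs). Neither call held with the GC trend removed.

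Kcnab2 (Kvbeta2), a cytosolic partner of Kv1 channels, had 197, 256, 224, 227 and 237 CPM in TMB and 293, 294, 266 and 273 CPM in vehicle, against 282, 266, 253 and 414 CPM in WT. WT F4 was far above every other library. Kcnab2 fell by 0.41 ± 0.12 in TMB (adjusted p = 0.047), a call kept in 2 of 13 leave-outs, with -0.23 without WT F4 (adjusted p = 0.024). With the GC trend removed it fell by 0.61 ± 0.06 in TMB and by 0.56 ± 0.07 in vehicle (adjusted p = 3.1e-06 and 1.9e-05). The vehicle value with all libraries was -0.11 ± 0.13 (adjusted p = 0.52). Kcnab3 was called higher in vehicle (0.50 ± 0.18, adjusted p = 0.045) in 2 of 13 leave-outs.

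Kcne1l (Kcne5), an X-linked relative of Kcne2, moved the other way. It had 4.72, 9.27, 7.89, 7.66 and 6.02 CPM in TMB and 7.78, 6.58, 7.93 and 11.1 CPM in vehicle, against 4.49, 3.06, 4.40 and 6.03 CPM in WT. It rose by 0.90 ± 0.24 in vehicle (adjusted p = 0.013), in every leave-out, and by 0.44 with the GC trend removed (adjusted p = 0.099).

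Kcnj14 was the most abundant inward rectifier. It had 386, 418, 398, 446 and 462 CPM in TMB and 417, 532, 462 and 480.3 CPM in vehicle, against 518, 553, 506 and 798 CPM in WT. All TMB libraries were below all WT libraries, while vehicle F2 reached into the WT range and WT F4 was far above the rest. Kcnj14 fell by 0.49 ± 0.12 in TMB (adjusted p = 0.020), lost without TMB F4 (-0.47, adjusted p = 0.055) and -0.32 without WT F4 (adjusted p = 0.0052). The vehicle value of -0.33 ± 0.13 did not pass (adjusted p = 0.061) except without vehicle F2 among the leave-outs (-0.39, adjusted p = 0.048), but -0.70 ± 0.09 did with the GC trend removed (adjusted p = 5.9e-05). Of its 50-base words, 30.8% also occur in other genes, most often in Gm5522, so its level is uncertain where reads could be split.

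Kcnj3 (chr2:55435970-55598145), the GIRK1 subunit of G protein-gated channels, had 17.5, 13.7, 15.5, 16.6 and 15.3 CPM in TMB and 14.0, 13.9, 14.9 and 14.1 CPM in vehicle, against 27.9, 24.6, 33.1 and 16.7 CPM in WT. WT F4 lay above the vehicle range and inside the TMB range. Kcnj3 fell by 0.85 ± 0.16 in vehicle (adjusted p = 0.0026) and by 0.70 ± 0.15 in TMB (adjusted p = 0.0086), and by 0.58 and 0.59 with the GC trend removed. Both calls held in every leave-out of 1 library. Of its words, 29.3% are shared with other genes, most often with Gm26794 on the opposite strand. Without strand information, Kcnj3 and Gm26794 cannot be told apart there.

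Its GIRK partner Kcnj9 was not called with all 13 libraries. Kcnj9 had 80.9, 91.4, 89.6, 88.4 and 73.4 CPM in TMB and 101, 82.4, 79.5 and 93.0 CPM in vehicle, against 74.7, 78.8, 80.7 and 111 CPM in WT. The vehicle value was 0.04 ± 0.12 (adjusted p = 0.79), and with the GC trend removed it was -0.38 ± 0.07 (adjusted p = 0.0015). Its direction therefore depends on the treatment of GC content.

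Of the other inward rectifiers, Kcnj2 (Kir2.1) averaged 13.8 ± 1.8 CPM in TMB and 12.1 ± 1.0 CPM in vehicle, against 16.7 ± 4.4 CPM in WT. It was called lower in vehicle (-0.47 ± 0.17, adjusted p = 0.0497) in 1 of 13 leave-outs and not with the GC trend removed (-0.09). Kcnj11, the pore of ATP-sensitive channels, was called higher in vehicle (0.44 ± 0.16, adjusted p = 0.040) and was 0.02 with the GC trend removed. Kcnj8, an ATP-sensitive channel of pericytes, averaged 2.83 ± 0.34 CPM in TMB and 3.09 ± 0.86 CPM in vehicle, against 2.49 ± 0.63 CPM in WT, and was not called.

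Kcnj13 (Kir7.1), the apical potassium channel of the pigment epithelium, was a trace signal. It had 23, 31, 25, 19 and 12 reads in TMB and 27, 39, 11 and 15 reads in vehicle, against 16, 27, 7 and 3 reads in WT libraries. The groups overlapped, and the values of 0.70 ± 0.49 in TMB and 0.69 ± 0.51 in vehicle did not pass (adjusted p = 0.39 and 0.30). Pigment epithelium markers other than Rpe65 summed to 134 to 182 CPM in TMB and 112 to 521 CPM in vehicle, against 56.7 to 110 CPM in WT libraries, with vehicle F2 the highest in both measures. Of the words of Kcnj13, 42.1% are shared with other genes, most often with Gigyf2 on the opposite strand. The part of carried-over epithelium was not tested.

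No K2P channel was called in any contrast with all 13 libraries. Kcnk1 (TWIK-1), the most abundant, had 34.8, 30.2, 29.5, 32.9 and 29.6 CPM in TMB and 34.1, 28.4, 27.4 and 36.2 CPM in vehicle, against 36.1, 34.0, 32.5 and 32.3 CPM in WT. The groups overlapped, with values of -0.10 ± 0.10 in TMB and -0.10 ± 0.10 in vehicle. The 7 log2 values ran between -0.56 and 0.05 in TMB and between -0.42 and 0.53 in vehicle.

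The calcium- and sodium-activated class, in which Kcnu1 was grouped by its symbol, held the largest increase and the BK channel. Kcnu1 (chr8:25849623-25937939), the pH-sensitive Slo3 channel known from sperm, had 3.29, 1.98, 1.53, 1.64 and 1.98 CPM in TMB and 1.59, 2.66, 1.19 and 1.97 CPM in vehicle, against 1.01, 0.874, 0.619 and 1.05 CPM in WT. These are 17 to 46 reads in Rpe65-/- and 9 to 15 reads in WT libraries, and the groups did not overlap. Kcnu1 rose by 1.22 ± 0.31 in TMB (adjusted p = 0.022) and by 1.06 ± 0.32 in vehicle (adjusted p = 0.024), and by 1.26 and 1.20 with the GC trend removed. The TMB call was lost without WT M1, M2 or F3 (adjusted p = 0.0502 to 0.073) and the vehicle call without vehicle F2 (0.84, adjusted p = 0.066), vehicle M5 (1.03, adjusted p = 0.055), WT M2 (1.05, adjusted p = 0.058) or WT F3 (0.93, adjusted p = 0.074).

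Kcnma1, the pore of BK channels, had 245, 227, 216, 270.4 and 228 CPM in TMB and 228, 245, 193 and 220.0 CPM in vehicle, against 322, 299, 372 and 223 CPM in WT. WT F4 was inside the Rpe65-/- range and the other WT libraries were above it. Kcnma1 fell by 0.46 ± 0.13 in vehicle (adjusted p = 0.017), a call lost without WT M1 (-0.42, adjusted p = 0.052), without WT F3 (-0.34, adjusted p = 0.065) and with the GC trend removed (-0.26, adjusted p = 0.057). Its partner Kcnmb4, the neuronal beta-4 subunit, had 1 to 14 reads per library. It had 30.7% of its words in common with other genes, most often with an antisense gene, and no value is drawn from Kcnmb4.

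Kcnt1 (Slack), a sodium-activated channel, had 32.8, 36.4, 29.5, 37.8 and 32.5 CPM in TMB and 41.7, 31.9, 34.6 and 40.5 CPM in vehicle, against 24.8, 24.8, 23.3 and 30.1 CPM in WT. It rose by 0.53 ± 0.12 in vehicle (adjusted p = 0.0059), in every leave-out, and by 0.39 ± 0.11 in TMB (adjusted p = 0.040), in 6 of 13. With the GC trend removed neither was called (0.22 and 0.25, adjusted p = 0.10 and 0.064). The small-conductance genes Kcnn1, Kcnn2 and Kcnn3 had values between -0.15 and 0.11 in the contrasts with WT.

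TMB against vehicle, the comparison that asks what the diet changed within Rpe65-/- retinas, gave 0 called members, and 0.0% of all genes were called. At an unadjusted p under 0.05, edgeR gave 16 members (9 of them voltage-gated), against 18.3% of all genes, DESeq2 called 0 members at an adjusted p of 0.05 and limma 0. In 9 members (2 higher, 7 lower) the groups did not overlap, against 14.2% of all genes. The members' median log2 fold change was -0.09, and that of all genes was 0.00.

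The 4 members with the smallest unadjusted p were Kcna5, Kcnk4, Kcnh7 and Kcna6. Kcna5 had 64.4, 77.3, 72.6, 73.8 and 77.0 CPM in TMB against 96.7, 97.4, 73.9 and 93.2 CPM in vehicle, with a value of -0.31 ± 0.10 (unadjusted p = 0.0063, adjusted p = 0.25). Vehicle M4 was inside the TMB range. Kcnk4 (TRAAK), a mechanosensitive leak channel, had 1.72, 1.98, 1.90, 1.57 and 1.98 CPM in TMB against 4.13, 2.06, 2.67 and 2.84 CPM in vehicle, with a value of -0.68 ± 0.22 (unadjusted p = 0.0071). Those groups did not overlap, and 13.2% of its words are shared with other genes, most often with its neighbour Catsperz.

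Kcnh7, whose values stand above, was 0.44 ± 0.16 in TMB against vehicle (unadjusted p = 0.014), without overlap. Kcna6 had 31.3, 37.6, 35.7, 37.9 and 32.7 CPM in TMB against 43.4, 39.9, 37.0 and 48.0 CPM in vehicle, at -0.26 ± 0.10 (unadjusted p = 0.016). It shares 38.8% of its words with other genes, most often with Gm26673 on the opposite strand. With the GC trend removed, these 4 stood at -0.16, -0.53, 0.18 and -0.14 in the order Kcna5, Kcnk4, Kcnh7, Kcna6.

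The absence of calls rests in part on WT F4, which adds to the shared estimate of spread although it is in neither group. Without it, 11 members passed in TMB against vehicle (2 higher, 9 lower), against 16.0% of all genes. The 2 higher were Kcnh7 and Kcnip4, and the 9 lower included Kcnab2, Kcnab3, Kcna5, Kcnc1, Kcng4, Kcnh2, Kcnk4 and Kcnk12. With only the 2 groups in the fit, 10 of 68 members passed (2 higher, 8 lower), against 14.7% of all genes. When WT F4 was left out and the GC trend removed together, 0 members passed.

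The direction of change followed the GC content of the transcript. In vehicle against WT, the 35 members at or above the median GC of 51.8% gave 11 higher and 0 lower calls with a median log2 fold change of 0.33, and the 34 members below it gave 1 higher and 13 lower calls with a median of -0.30. Over the 69 members the correlation between GC content and log2 fold change was r = 0.66 (rho = 0.73) in vehicle against WT, r = 0.36 (rho = 0.49) in TMB against WT and r = -0.72 (rho = -0.72) in TMB against vehicle. These are correlations across genes, which share libraries and are not independent. Over all 16711 genes with a GC value, r was 0.46, 0.20 and -0.54 (rho = 0.65, 0.40 and -0.65), so the trend was not limited to the members. Calls over all genes were not counted by GC content. Kcne2 and Kcnu1, with GC contents of 45.8% and 46.0%, stood farthest from the trend.

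When a smooth trend of GC content was taken out of each library, the member correlations were 0.08, 0.07 and -0.01. In vehicle, 17 members were then called (4 higher, 13 lower), against 19.4% of all genes (7.78% higher and 11.6% lower), 12 of them among the 25 called before. The added calls were Kcnj14, Kcnab2, Kcnj9, Kcnc4 and Kcnh2, all lower, and Kcnh2 (Erg1) had stood at 0.40 before and stood at -0.20 after. In TMB, 14 members were called, against 15.8% of all genes, 8 of them among the 9 called before. In TMB against vehicle 0 were called and 6 had an unadjusted p under 0.05, against 14.6% of all genes. Whether the GC trend is technical or part of the disease was not tested.

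**Figure D4:**
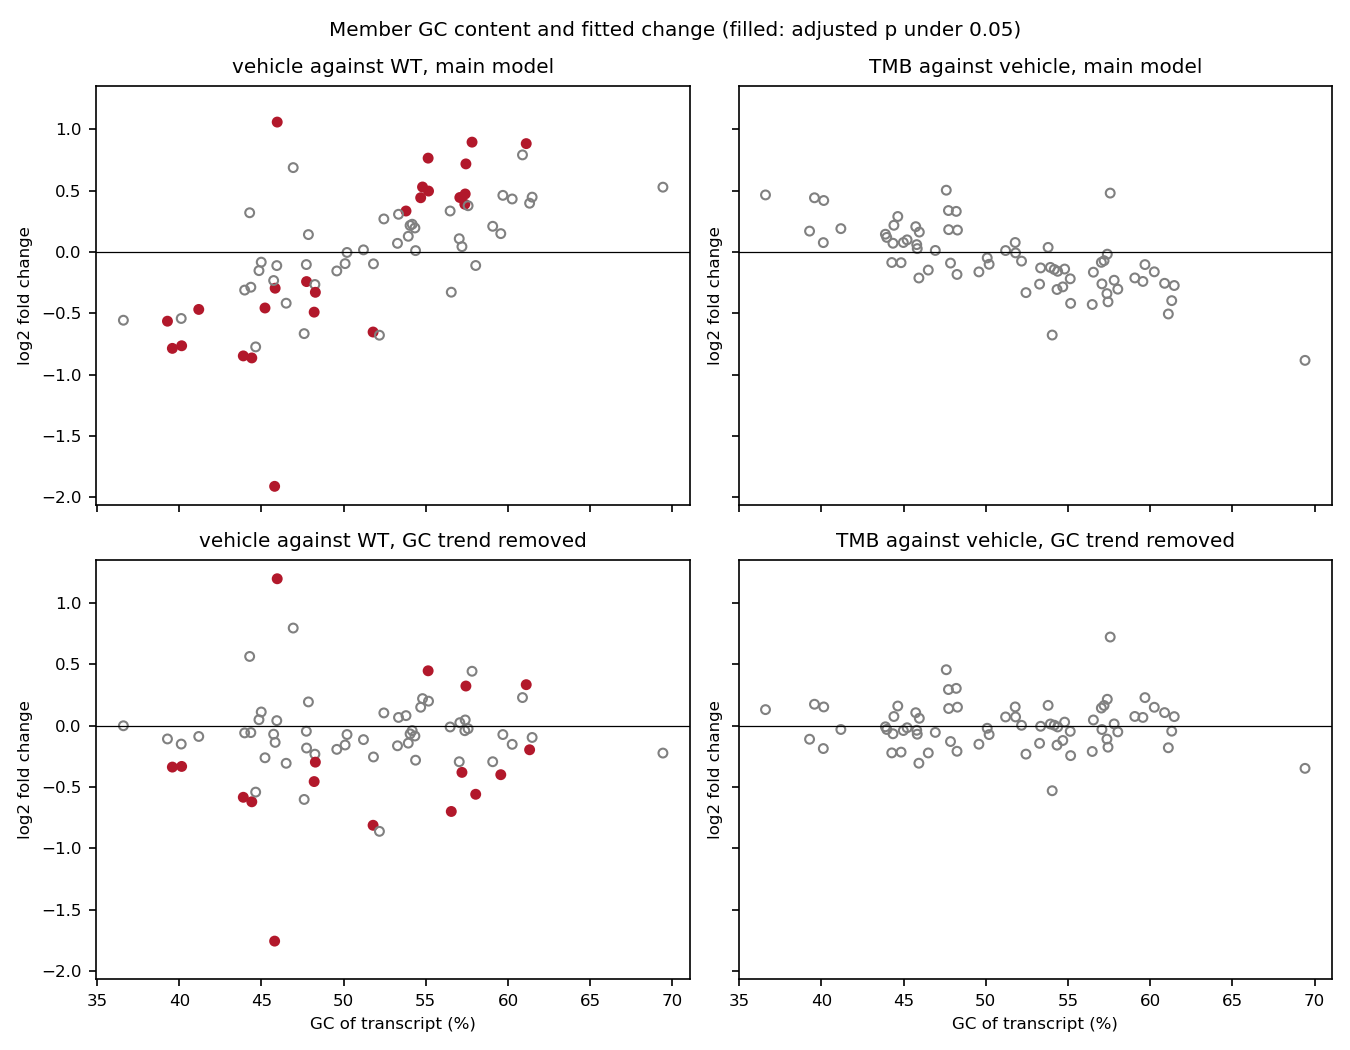
GC content of the longest transcript (%) against log2 fold change of the 69 members for vehicle against WT and TMB against vehicle, in the model with all 13 libraries (top) and after the trend with GC was removed from each library (bottom). The upward slope in vehicle against WT (r = 0.66) and the downward slope in TMB against vehicle (r = -0.72) are absent below (0.08 and -0.01), and Kcne2 keeps its place near -1.8.

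Across all 25 alternatives, 6 of the 25 vehicle calls were kept (Kcne2, Kcnq3, Kcnj3, Kcnh7 and Kcnip4 among them), all lower, and 2 of the 9 TMB calls (Kcne2 among them). All 25 and all 9 were kept without WT F4. For all 12 members called higher in vehicle, WT F4 was above the other WT libraries, and for 12 of the 13 called lower it was below them. Over all 69 members, called or not, WT F4 was above the other WT libraries in 30 and below them in 26. The position of WT F4 was not counted over all genes, so these counts are not shown to be particular to the members.

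**Figure D5:**
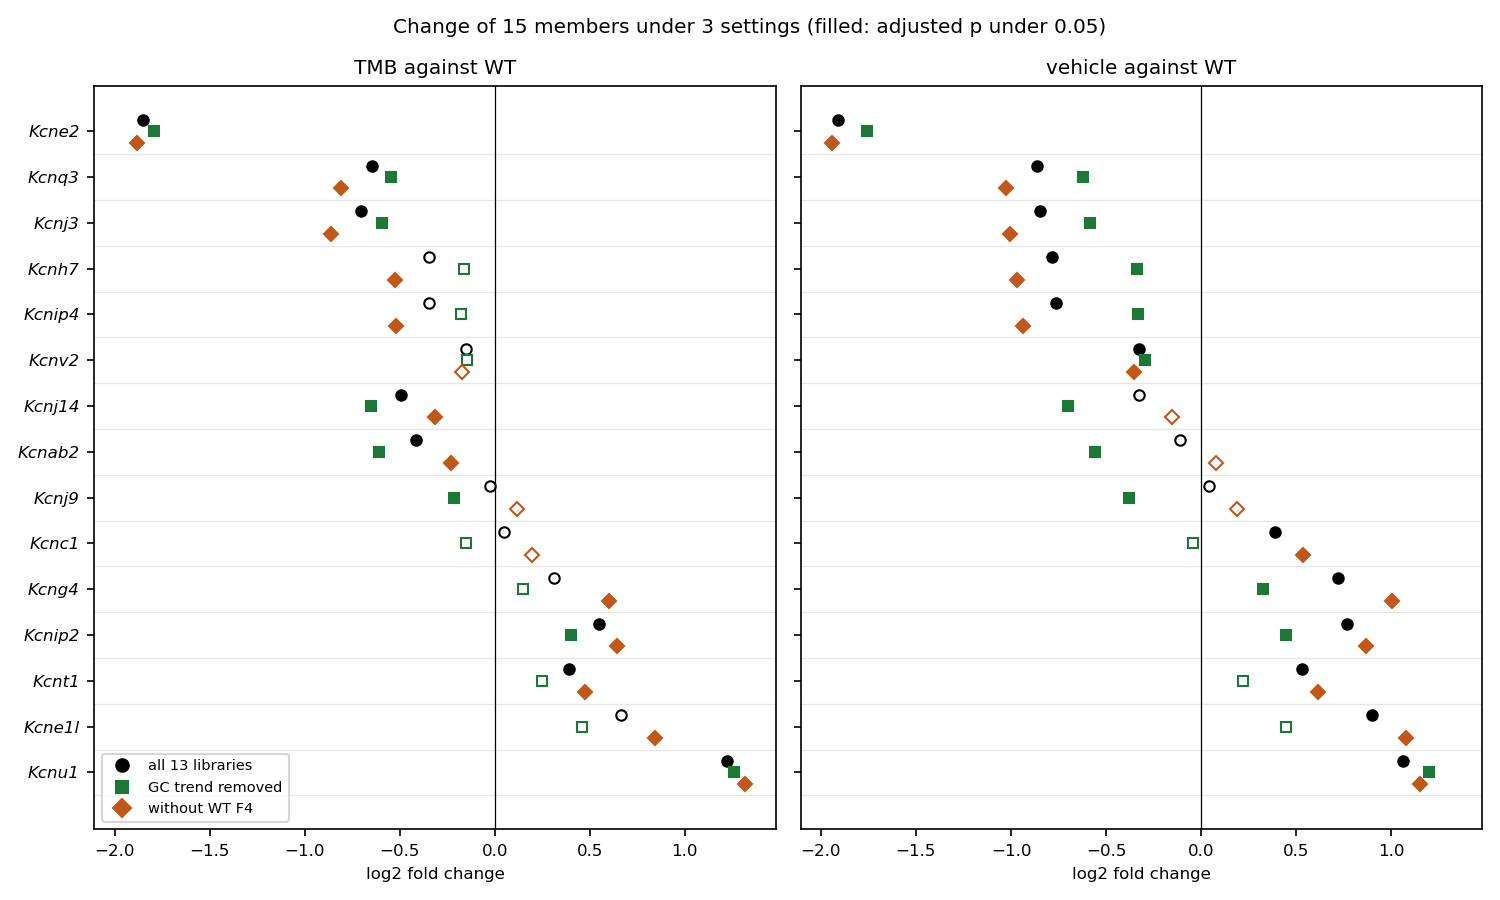
Log2 fold change of 15 members in TMB against WT (left) and vehicle against WT (right) with all 13 libraries (circles), with the GC trend removed (squares) and without WT F4 (diamonds). Filled symbols passed an adjusted p of 0.05. Kcne2, Kcnq3, Kcnj3, Kcnip2 and Kcnu1 are filled in all 3 settings in both panels, and Kcnj9, Kcnc1 and Kcnab2 lie on both sides of 0 on the right.

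Genes that handle potassium beside these channels were listed separately as 25 pumps, cotransporters, HCN channels and accessory proteins, of which 24 passed the filter. In vehicle 5 were called higher (including Tmem175, Abcc8, Hcn3 and Lrrc38) and 4 lower (including Atp1b1 and Dpp10), against 33.9% of all genes called. In TMB 1 was called higher (Tmem175) and 1 lower (Atp1b1), against 9.53% of all genes. In TMB against vehicle 0 were called. Values of these genes under the alternatives are not given here. Atp1b1, a beta subunit of the sodium-potassium pump, averaged 385 CPM in TMB and 348 CPM in vehicle, against 469 CPM in WT, and fell by 0.43 ± 0.08 in vehicle (adjusted p = 0.0030). Tmem175, a lysosomal potassium channel, averaged 23.3 CPM in TMB and 24.6 CPM in vehicle, against 18.4 CPM in WT, and rose by 0.42 ± 0.09 in vehicle (adjusted p = 0.0049). Lrrc38, which tunes BK channels, was called higher in vehicle (0.50, adjusted p = 0.041), at averages of 3.84 CPM in TMB, 5.24 in vehicle and 3.71 in WT. Lrrc55, also listed, was not called in vehicle (-0.33 ± 0.20, adjusted p = 0.19). The BK pore gene Kcnma1 was called lower in vehicle, a call lost with the GC trend removed.

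Near the minimum of reads, values were too sparse to order. Just inside it stood Kcng3, with 3 to 16 reads per library and 4 libraries at 10 or more, then Kcns1 with 6 libraries and Kcnmb4 with 7. Just outside stood Kcnv1, a Kv8.1 relative of Kcnv2, with 6, 1, 6, 2 and 5 reads in TMB and 3, 2, 2 and 3 reads in vehicle, against 15, 11, 10 and 7 reads in WT libraries, followed by Kcnj4, Kcnmb3 and Kcne1, each with 1 library at 10 or more. The 19 genes under the minimum also include Kcnq1, the main partner of Kcne2 in other epithelia, with 1 to 8 reads per library. In all, 21 members overlap exons of another listed gene, mostly on the opposite strand, and 7 share 10% or more of their 50-base words with other genes.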

How the data were processed

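Retinal RNA of 13 mice was analysed. According to the study's methods and processing notes, reads were inspected with FastQC, trimmed with Trimmomatic, mapped to GRCm38 with STAR and assigned to genes with HTSeq. Whether counting was stranded is not stated in the sources used. The authors deposited raw counts per gene in each library, with mitochondrial genes in a separate table that was not used. WT columns are listed 2 times in the nuclear table with identical values, so 4 count columns were not used.

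Counts were analysed in R 4.3.3 with edgeR 4.0.16 (TMM scaling, filterByExpr, 16782 genes) in 1 quasi-likelihood model of all 13 libraries without covariates, with Benjamini-Hochberg adjustment over all genes and a threshold of 0.05. The study's tool, DESeq2, served as an alternative. Standard errors are the absolute log2 fold change divided by the square root of F. CPM used TMM effective library sizes, and levels per kb the longest GENCODE M21 transcript. The GC trend was a cubic curve of log2 CPM on transcript GC, fitted in each library over 16711 genes. Shared words were compared at 50 bases, and groups were called non-overlapping when their CPM ranges were separate. Limits from counts of 0 cover counting error only. The scripts were tested on simulated counts.

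Members named with values were, per comparison and direction, the 6 called members of largest change without overlap, the 8 highest per kb, members with a known role in retina, and the 4 of smallest unadjusted p in TMB against vehicle. Results of some genes are not reported here. Members and lists were chosen with earlier results of these data known. Alternatives were DESeq2 1.42.0, limma 3.58.1, DESeq2-kind size factors, no filter, a mean count of at least 100, only the 2 groups compared, labelled sex, a replicate block, GC trend removal with and without the block, each library left out, and WT F4 with vehicle F2 left out. Removing the GC trend and WT F4 together was added after seeing the data.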

Additional observations from a re-analysis of the deposited data

Results flagged for a closer look

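In each named member, the highest or lowest library of a group was compared with the rest of its group by Dixon's ratio, and 6 of 102 groups had a library far from the others. Chance gives about 1 in 20 groups. WT F4 was the high library in 3 of them. It had 91.6 CPM of Kcna5 (73.1 to 75.7 in the other WT libraries), 798 CPM of Kcnj14 (506 to 553) and 111 CPM of Kcnj9 (74.7 to 80.7). TMB F1 was the high library in another 2, with 2.36 CPM of Kcnq5 (1.56 to 1.77 in the other TMB libraries) and 3.29 CPM of Kcnu1 (1.53 to 1.98). In vehicle, M4 was high in Kcnj3 with 14.9 CPM (13.9 to 14.1 in the other vehicle libraries).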

How the results depend on the processing

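Precision is limited by 4 or 5 mice a group, and low members such as Kcnu1 and Kcnj13 also by their counts. The number of members called changed with several choices. In vehicle against WT (25 members called, 5697 genes) it was 12 (2861 genes) with only the 2 groups in the model and 42 (9521 genes) without WT F4 and vehicle F2, and it ran between 11 and 41 when 1 library was left out. In TMB against WT (9 members, 1600 genes) it was 14 (2642 genes) with the GC trend removed, 20 (3308 genes) when WT F4 was also left out and 28 (6665 genes) without WT F4 and vehicle F2, and it ran between 4 and 27 when 1 library was left out. Only the 2 groups in the model gave 1053 genes. In TMB against vehicle (0 members, 0 genes) it was 10 (2402 genes) with only the 2 groups and 18 (3436 genes) without WT F4 and vehicle F2, and it ran between 0 and 11 when 1 library was left out. DESeq2 called 64 genes there and 357 were called without the GC trend and WT F4, none of them members. Of all genes, GC trend removal called 3236 in vehicle against WT, and leaving out WT F4 called 9508 in vehicle and 6490 in TMB against WT and 2741 in TMB against vehicle.

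Libraries share numbers across groups, but nothing in the labels ties a number to a litter or day, and same-numbered libraries deviated together only weakly (correlations between -0.171 and 0.252). With the replicate number as a block, 11 members were called in vehicle (2224 genes), 2 in TMB (567 genes) and 0 in TMB against vehicle. The block with the GC trend removed gave 12 in vehicle (2324 of 16711 genes), 12 in TMB (1614 genes) and 0 in TMB against vehicle (4 genes).

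In vehicle against WT, 2 named members with a call in at least 1 setting changed direction with the GC trend removed, and Kcna5, Kcna6, Kcnh8 and Kcnk4 changed sign without a call before or after its removal. Kcnc1, at 0.39 with all libraries, was -0.0408 with the trend removed, -0.0347 with the block added and -0.0692 without WT F4. Kcnj9, at 0.04, was -0.38, -0.38 and -0.41 in the same 3 settings (adjusted p = 0.0015, 0.0069 and 0.00077). The cause was not tested. The 34 named members were compared over 25 alternatives. Direction and side of the threshold were kept by 689 values in vehicle against WT, 737 in TMB against WT and 761 in TMB against vehicle. In the contrasts with WT, 110 and 53 values lost the call. None could be lost in TMB against vehicle, where no member was called with all 13 libraries. In the same order, 18, 37 and 24 values gained a call, and 20, 16 and 58 changed direction without a call before or after. The 6 other values, in vehicle against WT, are those of Kcnc1 and Kcnj9 above.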
